A study of Homo sapiens with 27 samples.

Results

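Knockdown of VPS37B alone was compared with control siRNA in DLD1 cells, a human colorectal carcinoma line, in 6 of the 27 libraries of the study. The 3 libraries labelled siVPS37B#1, from cells given an siRNA against VPS37B and against no other paralog, were set against the 3 labelled siCTRL#1, from cells given control siRNA. They were paired by the replicate number, which the labels also give as the batch. RNA was measured with an amplicon panel 72 h after transfection, and the labels call the replicates biological without naming separate cultures. The other groups, also of 3 libraries each, were untransfected cells (NT) and cells depleted of VPS37A (siVPS37A#1), VPS37C (siVPS37C#1), pairs of paralogs (siVPS37AB#1, siVPS37AC#1, siVPS37BC#1) or all of them (siVPS37ABC#1). Each paralog was targeted with 1 siRNA, so effects of the sequence and of the loss of the gene cannot be told apart within the single knockdown. The makeup of the siCTRL#1 mixture is not given in the sources used here.

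VPS37B is one of the alternative VPS37 subunits of ESCRT-I, a complex built around TSG101 and VPS28 that binds ubiquitinated membrane proteins on endosomes and passes them on for sorting into vesicles of the lumen. The cargo then reaches the lysosome, and receptors such as that for EGF are switched off in this way. ESCRT-I also takes part in the last step of cell division and in virus budding. An siRNA guides cleavage of its matched transcript, and pairing of only its seed, bases 2 to 8, with 3' untranslated regions (UTRs) is a known route by which siRNAs lower other transcripts.

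Genes were measured in TPM (reads per unit of transcript length, scaled so that each library sums to 1000000), and a log2 difference is that of log2(TPM + 1), siVPS37B#1 minus siCTRL#1, with its standard error (SE), n = 3 per group. The model was limma with the replicate number as a block, an adjusted p is the Benjamini-Hochberg value over the 6458 genes that averaged 10 TPM or more over all libraries, and a gene was called changed below 0.05. The p-values measure the spread between these libraries, which may be technical. The 6 libraries held 5252496 to 8928964 reads, and the fewest of all 27, in siVPS37B#1 replicate 3, were 5252496. Of 9 colon epithelial markers measured, 7 passed the limit on level and none of these was called changed. Markers of other cell types were nearly absent from the panel table: 1 fibroblast, 2 leukocyte and 1 endothelial marker were measured, and none reached a mean of 10 TPM. In RNA of whole cultures, fewer cells of a kind and less RNA per cell cannot be told apart.

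The transcript aimed at was low in every siVPS37B#1 library. VPS37B stood at 40.1, 45.9 and 53.2 TPM in siCTRL#1 replicates 1 to 3, from 493, 449 and 712 reads. In siVPS37B#1 it stood at 1.61, 2.09 and 0.964 TPM, from 17, 30 and 8 reads. The groups lay far apart. The knockdown left 3.35 ± 1.21% of the control level (SD, n = 3), with a log2 difference of -4.23 ± 0.18 (adjusted p = 5.8e-15). The NT libraries, at 43.9 to 52.6 TPM, lay within the range of siCTRL#1.

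The other ESCRT-I subunits did not pass the test: 8 of the 10 listed were measured and 5, VPS37B included, reached 10 TPM. VPS37A was at 4.78, 6.06 and 6.57 TPM in siCTRL#1 and 4.04, 6.33 and 6.21 in siVPS37B#1, and VPS37C at 17.6, 15.7 and 19.2 against 21.8, 22.8 and 17.3. Both paralogs overlapped between the groups, with 95% intervals of the log2 difference from -0.34 to 0.20 for VPS37A and from -0.20 to 0.64 for VPS37C. The core subunits TSG101 (0.16 ± 0.10, adjusted p = 0.33) and VPS28 (0.40 ± 0.19, adjusted p = 0.19) were not called. VPS28 was at 106 to 152% of the siCTRL#1 mean in siVPS37B#1 and at 98.5 to 103% in siCTRL#1, and MVB12A at 117 to 158% and 77.8 to 116%. Neither overlapped between the groups, as held with siVPS37B#1 higher for 10.8% of all genes. UBAP1, the subunit that replaces MVB12 in some ESCRT-I complexes, was at 27.4, 24.7 and 28.5 TPM in siCTRL#1 and at 17.6, 18.3 and 21.2 in siVPS37B#1. Its groups did not overlap, as was the case with siVPS37B#1 lower for 9.59% of all genes, and its difference of -0.48 ± 0.17 had an adjusted p of 0.077. VPS37A, MVB12A and MVB12B averaged under 10 TPM, so their values come from a fit without that limit, in which none was called (adjusted p = 0.78, 0.27 and 0.84).

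**Figure D1:**
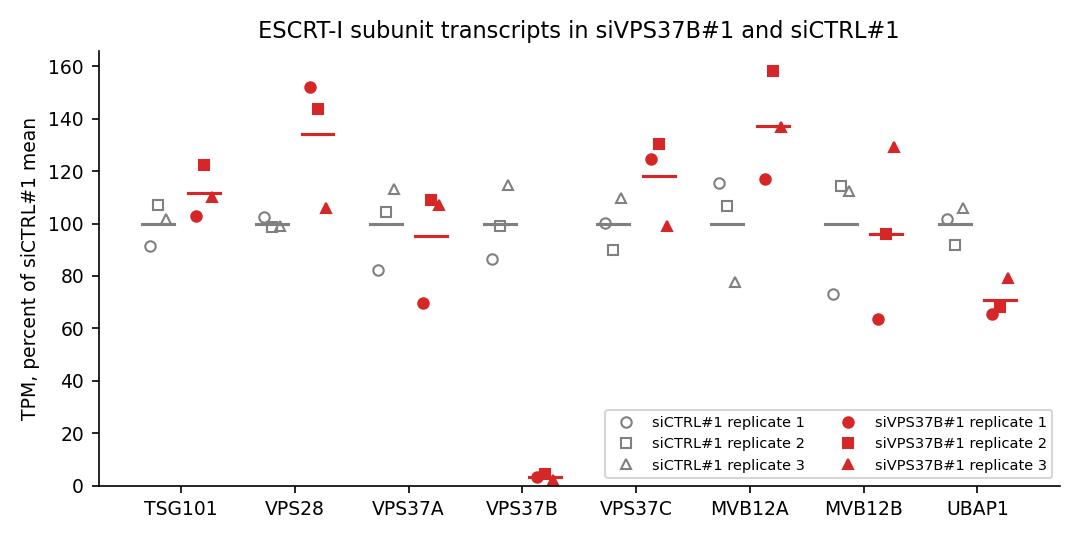
Level of each measured ESCRT-I subunit in the 3 siCTRL#1 (open grey) and 3 siVPS37B#1 (filled red) libraries, in percent of the siCTRL#1 mean, with bars for the group means. VPS37B lies at 3.35% in siVPS37B#1 while all siVPS37B#1 libraries lie below all controls for UBAP1, above all of them for VPS28 and MVB12A, and overlap with them for the other subunits.

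Of the 6458 genes, 607 (9.40%) were called, 298 higher (4.61%) and 309 lower (4.78%), and most differences were small. Beyond 2-fold lay 11 genes higher and 9 lower, and the median SE was 0.141. Without the replicate block the log2 differences were the same and 111 genes were called (60 higher and 51 lower). With a term for the number that ends each library description, which only the third pair shares, 55 were called (29 higher and 26 lower). Of 76 genes named here by rule as changed against siCTRL#1, 31 kept the call without the block and 19 with the library number term. Outside the 12 largest rises and falls, those kept without the block were SPRED2, TFF3, CDH17, HOXB8, ATG5, MAP1LC3A, AP2A1, HSPA5, PSAT1, CRELD2, BIRC5, STAT2, CST7 and CXCL5, and those kept with the library number term were HOXA10, MAP1LC3A, AP2A1, HSPA5, HIST1H4L and CXCL5. The count of all calls was 222 without siCTRL#1 replicate 1, 164 without siVPS37B#1 replicate 1, 357 without siCTRL#1 replicate 2, 283 without siVPS37B#1 replicate 2, 222 without siCTRL#1 replicate 3 and 504 without siVPS37B#1 replicate 3.

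The largest falls after VPS37B were in HSPB11, STYX, CTGF, SPTSSA, THBS1, NDUFA8, RBPJ, CYR61, UBE2V2, TNNC1 and PAIP2, by a rule that took the 12 largest called changes of genes averaging 20 TPM or more whose 3 pairs had 1 sign. Lower in all 3 pairs were 27.6% of all genes, and higher in all 3 were 22.5%. HSPB11, a subunit of the intraflagellar transport complex that carries cargo in cilia, was at 548, 680 and 730 TPM in siCTRL#1 and at 209, 228 and 282 in siVPS37B#1. The groups lay apart, and its log2 difference was -1.44 ± 0.12 (adjusted p = 2.1e-08). STYX, a phosphatase-like protein without catalytic activity, went from 49.1, 48.2 and 57.7 TPM to 16.8, 19.6 and 28.3 (-1.25 ± 0.15, adjusted p = 1.6e-05). NDUFA8, an accessory subunit of complex I of the respiratory chain, went from 351, 361 and 352 TPM to 161, 178 and 186 (-1.02 ± 0.14, adjusted p = 7.9e-05). In each of these genes the lowest siCTRL#1 library was above the highest siVPS37B#1 library, as held for 9.59% of all genes.

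SPTSSA, a small subunit of the enzyme that starts sphingolipid synthesis, went from 53.4, 55.8 and 47.5 TPM to 20.7, 22.8 and 30.5 (-1.07 ± 0.15, adjusted p = 6.5e-05). UBE2V2, a partner of the ubiquitin-conjugating enzyme UBE2N, went from 84.1, 96.4 and 117 TPM to 41.1, 53.03 and 58.2 (-0.95 ± 0.13, adjusted p = 4.7e-05). RBPJ, the DNA-binding factor of Notch signalling, went from 19.6, 23.4 and 30.7 TPM to 8.36, 12.0 and 15.1 (-1.01 ± 0.19, adjusted p = 0.0015). PAIP2, which binds the poly(A)-binding protein and represses translation, was also apart between the groups (-0.90 ± 0.15, adjusted p = 0.00068). Such a gap with siVPS37B#1 lower held for 9.59% of all genes. Without the block RBPJ missed the threshold (adjusted p = 0.081) and PAIP2 stayed just inside it (adjusted p = 0.049). HSPB11, STYX, NDUFA8, SPTSSA, UBE2V2, RBPJ and PAIP2 were lower than in NT too, at adjusted p of 0.0044 or less. Their differences were -0.95, -0.675, -0.78, -1.03, -0.73, -1.86 and -0.70. The siCTRL#1 group itself was above NT for HSPB11 and STYX (0.49 and 0.58, adjusted p = 0.012 and 0.017). It was below NT for RBPJ (-0.85, adjusted p = 0.0045).

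Of the 12 largest falls, 7 had in their 3' UTR the letters TTAACAA, and of the 12 largest rises 0 did, against 12.3% of all tested genes with a UTR. Except for CDKN1A and SERPINB5 (1540 and 1366 bases), the rises had UTRs of 142 to 468 bases. The median over all genes was 878 bases, and the falls with the letters had 62 to 3883. Few matches are thus to be looked for among the rises. Among all 16004 heptamers found in at least 30 of the 6178 tested genes with a 3' UTR of at least 50 bases, TTAACAA ranked 1 when heptamers were ordered by how low the log2 differences of their genes were, after removal of the trend with UTR length and GC content. Only the sense strand was searched. TTAACAA overlaps the heptamer ranked 2, TAACAAA. The stretches that hold the match in the genes just described are shown because the letters are what these genes share. They are from GENCODE transcripts on GRCh38 matched by RefSeq identifier, 5' to 3' on the transcript strand, with the match in capitals (the 7 letters, or 8 where an A follows). RBPJ ends with its transcript and is given short.
HSPB11, 3' UTR, chr1:53921608-53921633, minus strand: tgcatgattttTTAACAAtatattta
STYX, 3' UTR, chr14:52771601-52771626, plus strand: ttacagaaacaTTAACAAAatgcagg
SPTSSA, 3' UTR, chr14:34434683-34434708, minus strand: ttgagaactacTTAACAAAagattta
SPTSSA, 3' UTR, chr14:34434385-34434410, minus strand: gagggtcactaTTAACAAtgtacttc
NDUFA8, 3' UTR, chr9:122144119-122144144, minus strand: gatcacaaacaTTAACAAAaaagtta
RBPJ, 3' UTR, chr4:26431045-26431066, plus strand: gtggcaaaaagTTAACAAAaaa
PAIP2, 3' UTR, chr5:139369550-139369575, plus strand: cagcacaacttTTAACAAAgctagaa
VPS37B, coding part of exon 2, chr12:122871031-122871056, minus strand: gaatgttcagcTTAACAAAgaaatga

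VPS37B itself held TTAACAA once in its 3028 bases of transcript, in the coding part and not in the 3' UTR, and there with the A that makes the match 8 letters long. Of the 7 falls with the match, SPTSSA had 2 and the others 1 each, that of UBE2V2 not being printed. The UTR of the paralog VPS37A, not called at -0.07, also holds the 8 letters. The sequence of the siVPS37B#1 guide is not in the sources used here, so whether its seed pairs with these letters was not tested.

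Across all genes the match went with lower levels in siVPS37B#1. The 759 genes with TTAACAA (12.3% of 6178) had a median log2 difference of -0.173, against -0.005 for the 5419 genes without it. The median was -0.240 for the 350 genes with the A after it and -0.118 for the 409 with another letter or none. Of the 294 lower genes with a UTR, 107 (36.4%) held the heptamer, and of the 285 higher genes 9 (3.16%) did. In the 3 pairs the gap between the medians with and without the match was -0.199, -0.142 and -0.166, so each pair showed it. Genes with the match have longer UTRs (median 2374 against 757 bases), and among UTRs of at least 1000 bases the medians were -0.165 with it and -0.020 without. Because the heptamer was picked on these differences, its values here are a description and have no test.

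Libraries that had no part in that choice gave the same order on average, with smaller values. When the siVPS37B#1 siRNA was added to other knockdowns, as the mean of siVPS37AB#1 minus siVPS37A#1, siVPS37BC#1 minus siVPS37C#1 and siVPS37ABC#1 minus siVPS37AC#1, TTAACAA again ranked 1 of 16004. The medians were -0.040 with and 0.013 without the match, and -0.069 with the 8 letters. The gap between the medians was -0.060, -0.062 and -0.033 for replicate numbers 1 to 3. It ranked 1 within the additions to siVPS37A#1 and to siVPS37C#1 and 4 in that to siVPS37AC#1. The number that ends each library description was shared by siVPS37ABC#1 and siVPS37AC#1 at every replicate number. It was shared by siVPS37AB#1 and siVPS37A#1 only in replicate 3, and never by siVPS37BC#1 and siVPS37C#1. In the addition to siVPS37AC#1 the medians were -0.070 with and -0.029 without TTAACAA. A part of library number in the ranks of the other additions was not tested. In siCTRL#1 against NT, where no VPS37B siRNA was present, TTAACAA ranked 13282 and the genes with it had a median of 0.047. That comparison is not separate from the choice, since the siCTRL#1 libraries were the reference on which the heptamer was picked, and a high value in them raises the one median and lowers the other.

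**Figure D2:**
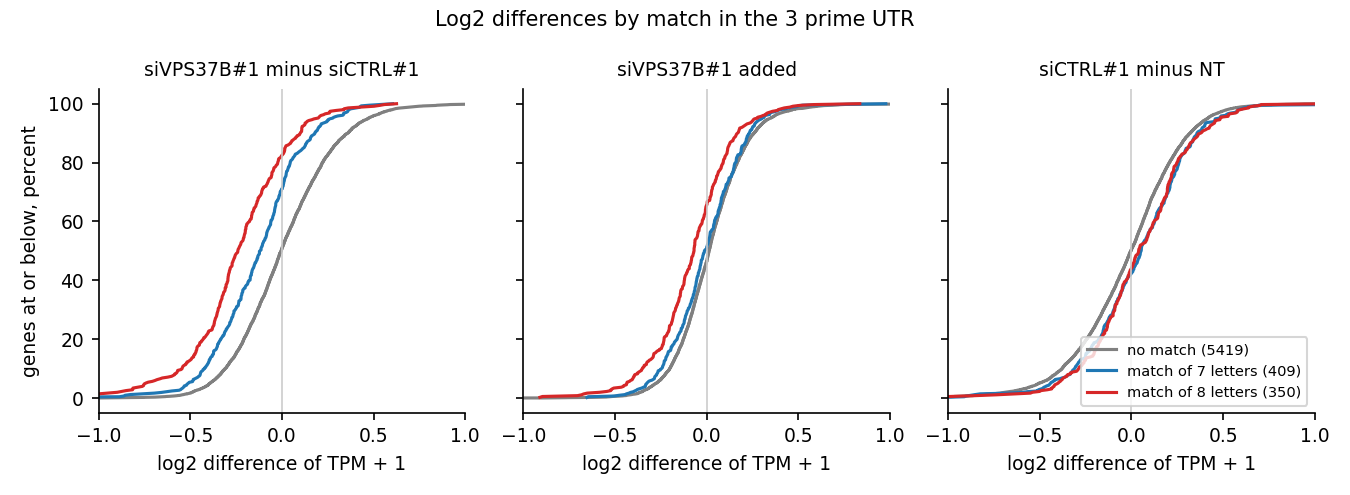
Cumulative share of genes by log2 difference, for genes with no TTAACAA in the 3' UTR (grey), with the 7 letters not followed by A (blue) and with the 8 letters ending in A (red), number of genes in brackets. The coloured curves lie left of the grey one in siVPS37B#1 minus siCTRL#1 (left), less far left when the siRNA was added to other knockdowns (middle), and not left of it in siCTRL#1 minus NT (right).

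The matricellular genes CTGF, CYR61 and THBS1 fell, and none of them holds the heptamer. They encode secreted proteins that bind the matrix and are widely used as readouts of YAP and TEAD. CTGF was at 59.1, 37.9 and 27.1 TPM in siCTRL#1 and 19.3, 15.4 and 15.4 in siVPS37B#1 (-1.198 ± 0.21, adjusted p = 0.00082). CYR61 went from 221, 165 and 152 to 119, 89.3 and 65.3 TPM (-0.99 ± 0.15, adjusted p = 0.00015) and THBS1 from 82.6, 64.2 and 72.0 to 36.0, 33.1 and 36.9 TPM (-1.02 ± 0.14, adjusted p = 6.5e-05). They were the 3 of 9 tested members of the YAP and TEAD list to be called, all lower, and the median of the list was -0.293 against -0.024 for all genes. That was 33.3% called, against 4.61% of all genes higher and 4.78% lower. Without the block CYR61 missed the threshold (adjusted p = 0.072), as did CTGF with the library number term (adjusted p = 0.11).

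CTGF and CYR61 were higher in siCTRL#1 than in NT. In NT, CTGF was at 24.3, 14.4 and 10.3 TPM and CYR61 at 130, 71.5 and 62.1, close to siVPS37B#1. In siCTRL#1 against NT, where 572 genes were called (8.86%), 238 higher (3.69%) and 334 lower (5.17%), both rose (1.30 ± 0.21 and 1.08 ± 0.15, adjusted p = 0.0002 and 3.0e-05), and in siVPS37B#1 against NT neither was called (0.10, adjusted p = 0.80, and 0.09, adjusted p = 0.76). THBS1 was higher in siCTRL#1 than in NT too (0.50, adjusted p = 0.027). In siVPS37B#1 THBS1 was lower than in NT (-0.52, adjusted p = 0.015). Against siVPS37A#1 and siVPS37C#1 CTGF was not called (-0.57 and -0.45, adjusted p = 0.061 and 0.14). CYR61 was lower than in siVPS37A#1 (-0.70, adjusted p = 0.0018) but not called against siVPS37C#1 (-0.15, adjusted p = 0.52). THBS1 was lower than in both (-1.36 and -0.92, adjusted p = 2.9e-07 and 6.2e-05). The last of the 12 falls, TNNC1, the calcium-binding subunit of troponin, went from 983, 765 and 899 to 532, 426 and 434 TPM (-0.93 ± 0.24, adjusted p = 0.019). It missed the threshold without the block (adjusted p = 0.073) and without siCTRL#1 replicate 1 (0.063), siVPS37B#1 replicate 1 (0.071), siVPS37B#1 replicate 2 (0.064) or siCTRL#1 replicate 3 (0.086). TNNC1 was lower than in NT too (-1.075, adjusted p = 0.0051).

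The largest rises were in CDA, YPEL3, GSN, TUBB3, HCFC1R1, MARCH2, EEF1A2, MT1F, ALDH3A1, RAC3, CDKN1A and SERPINB5, by the same rule. CDA, cytidine deaminase of pyrimidine salvage, was at 2.18, 5.13 and 4.25 TPM in siCTRL#1 and 12.4, 21.2 and 8.06 in siVPS37B#1 (1.57 ± 0.20, adjusted p = 1.9e-05). The groups did not overlap, as held with siVPS37B#1 higher for 10.8% of all genes. In NT it was at 14.7, 17.5 and 17.5 TPM, so siCTRL#1 was the low group (-1.90 against NT, adjusted p = 6.1e-07) and siVPS37B#1 was not called against NT (-0.33, adjusted p = 0.29).

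YPEL3, of the Yippee family of small zinc-binding proteins, was at 19.6, 24.6 and 17.1 TPM in siCTRL#1 and 48.4, 58.4 and 40.1 in siVPS37B#1. Its pair differences of 1.27, 1.22 and 1.19 were nearly equal (fitted 1.22 ± 0.13, adjusted p = 8.7e-07), and it was higher than in NT, siVPS37A#1 and siVPS37C#1 too (0.86, 1.04 and 1.23, adjusted p = 5.3e-05, 2.4e-06 and 2.7e-07). GSN, the actin-severing protein gelsolin, was at 11.9, 25.5 and 17.8 TPM against 47.2, 55.5 and 27.4 (1.195 ± 0.19, adjusted p = 0.00026). TUBB3, the class III beta tubulin, was at 63.5, 37.5 and 52.0 TPM against 115, 99.3 and 92.5 (1.01 ± 0.19, adjusted p = 0.002). It was the 1 of 15 tested tubulins to be called (6.67%, against 9.40% of all genes), and YPEL3, TUBB3 and GSN were all called against NT as well.

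MARCH2, a ubiquitin ligase of endosomal membranes, was at 38.6, 30.4 and 20.3 TPM against 73.6, 53.7 and 45.8 (0.95 ± 0.18, adjusted p = 0.002). RAC3, a small GTPase of the actin cytoskeleton, was at 42.0, 27.2 and 45.2 against 64.9, 77.4 and 69.5 TPM (0.90 ± 0.17, adjusted p = 0.002). EEF1A2, a tissue-restricted translation elongation factor, rose by 0.94 ± 0.15 (adjusted p = 0.00028) and SERPINB5, the serpin maspin, by 0.87 ± 0.14 (adjusted p = 0.00036). Without the block neither EEF1A2 (adjusted p = 0.077) nor SERPINB5 (0.16) passed, and the library number term also ended the calls of GSN (0.14), HCFC1R1 (0.11), ALDH3A1 (0.082) and RAC3 (0.15).

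Of the 12 rises, CDA, HCFC1R1, EEF1A2, MT1F, ALDH3A1, RAC3, CDKN1A and SERPINB5 were not called against NT, and the differences of CDA, MT1F, ALDH3A1 and CDKN1A lay below 0 there. ALDH3A1, an aldehyde dehydrogenase, was at 31.3, 33.8 and 30.8 TPM in siCTRL#1, 61.5, 79.9 and 44.9 in siVPS37B#1 and 92.0, 67.3 and 83.0 in NT. HCFC1R1, a regulator of the export of the cofactor HCFC1 from the nucleus, was at 32.2, 21.1 and 22.5, then 52.9, 48.2 and 49.2, then 54.6, 32.9 and 62.3 TPM. MT1F, a metallothionein, and CDKN1A, the cell cycle inhibitor p21, stood at 24.7 ± 5.4 and 13.6 ± 5.12 TPM in siCTRL#1 (SD, n = 3), 48.3 ± 13.9 and 26.3 ± 10.1 in siVPS37B#1 and 55.3 ± 12.7 and 28.8 ± 6.05 in NT. MT1F and CDKN1A missed the threshold without siVPS37B#1 replicate 1 (adjusted p = 0.073 and 0.074), siVPS37B#1 replicate 2 (0.093 and 0.081) and siCTRL#1 replicate 3 (0.066 and 0.094), and without the block (0.089 and 0.078). Of the 298 higher genes 84 were also higher than in NT and 10 lower, and of the 309 lower genes 127 were also lower and 2 higher. Both comparisons use the siVPS37B#1 libraries. In siVPS37B#1 against NT 766 genes were called (11.9%), 328 higher (5.08%) and 438 lower (6.78%).

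**Figure D3:**
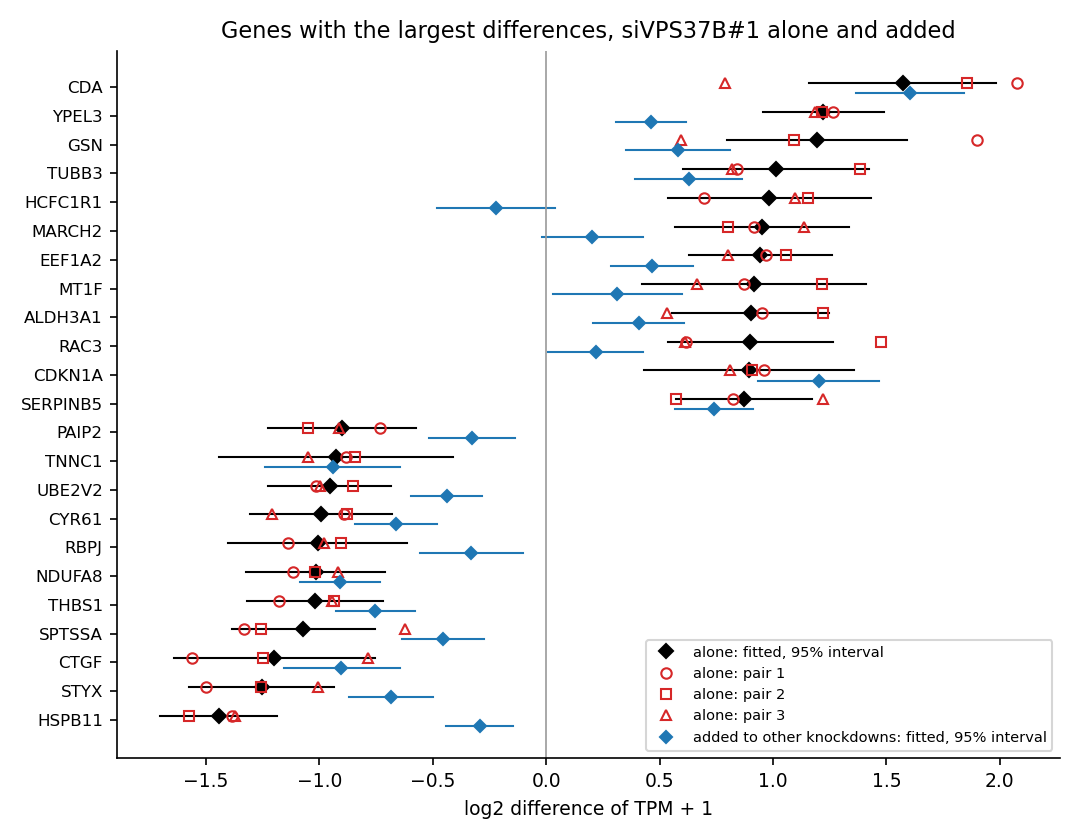
Log2 difference of TPM + 1 for the 12 largest rises and 11 of the 12 largest falls (VPS37B, at -4.23, is left out), with each of the 3 pairs in red, the fitted value and 95% interval in black, and the value when the siRNA was added to other knockdowns in blue. HSPB11 and YPEL3 are among the genes whose added value lies much nearer to 0, while CDA, TNNC1 and NDUFA8 have similar values in both.

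ESCRT-I works on the endosomal and lysosomal route. Of 24 tested other ESCRT components, 1 rose and 1 fell, a share of 8.33% against 9.40% of all genes. VPS25, a subunit of ESCRT-II, was at 126, 130 and 117 TPM in siCTRL#1 and 209, 163 and 204 in siVPS37B#1 (0.62 ± 0.16, adjusted p = 0.016). CHMP4C, an ESCRT-III subunit that acts in the abscission checkpoint, was at 25.9, 33.6 and 40.0 against 13.7, 19.1 and 26.6 TPM (-0.74 ± 0.17, adjusted p = 0.0098), and its 3' UTR holds the 8 letters. CHMP4C missed the threshold without siVPS37B#1 replicate 1 (adjusted p = 0.085), and VPS25 without that library (0.054), siVPS37B#1 replicate 3 (0.064), siCTRL#1 replicate 1 (0.088) or siCTRL#1 replicate 3 (0.059). PDCD6, a calcium sensor that binds ESCRT proteins, was the 1 of 13 accessory genes called (7.69%, 0.47 ± 0.13, adjusted p = 0.025), but stood far below NT in both groups, at 227 to 241 TPM in NT against 54.1 to 70.2 in siCTRL#1 and 78.5 to 110 in siVPS37B#1. Its call ended without siCTRL#1 replicate 2 (0.14) or siVPS37B#1 replicate 2 (0.21). Without the block VPS25, CHMP4C and PDCD6 all missed the threshold (0.10, 0.0995 and 0.076).

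In the list of lysosome and autophagy genes, 3 of 37 tested members rose and 5 fell (21.6% called against 9.40% of all genes, median -0.003). MAP1LC3A, of the LC3 family that coats autophagosomes, was at 13.5, 14.6 and 10.7 TPM in siCTRL#1 and 21.9, 24.4 and 27.4 in siVPS37B#1 (0.88 ± 0.18, adjusted p = 0.0033). ATG5, needed to attach LC3 to membranes, was at 15.6, 13.6 and 17.3 against 10.0, 10.6 and 9.11 TPM (-0.59 ± 0.12, adjusted p = 0.0029), and BECN1, a subunit of the lipid kinase that starts autophagosomes, fell by 0.42 (adjusted p = 0.022). WIPI1, which binds the lipid that kinase makes, rose by 0.77 ± 0.17 (adjusted p = 0.0062). The UTRs of ATG5 and BECN1 hold the heptamer and those of MAP1LC3A and WIPI1 do not. WIPI1 missed the threshold without siCTRL#1 replicate 3 (adjusted p = 0.053). BECN1 missed it in 5 of the 6 omissions (0.057 to 0.098), all but siVPS37B#1 replicate 3.

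Among 29 tested endosome and membrane traffic genes 3 rose and 2 fell (17.2% called, against 9.40% of all genes). AP2A1, a subunit of the clathrin adaptor at the plasma membrane, was at 46.8, 57.8 and 36.5 TPM in siCTRL#1 and 76.2, 76.0 and 80.1 in siVPS37B#1 (0.73 ± 0.15, adjusted p = 0.0042). VPS33A, of the tethering complexes that fuse late endosomes with lysosomes, was at 19.1, 24.6 and 27.8 against 10.2, 12.9 and 20.8 TPM (-0.71 ± 0.17, adjusted p = 0.012). AP2A1 kept its call in all 6 omissions, and VPS33A lost it without siVPS37B#1 replicate 1 (adjusted p = 0.10), siVPS37B#1 replicate 2 (0.057) or siCTRL#1 replicate 3 (0.059). The dynamin DNM2 (0.50), the early endosome GTPase RAB5B (0.36) and the transferrin receptor TFRC (-0.36) had adjusted p values of 0.039, 0.046 and 0.0498 that did not hold in 6, 5 and 4 of the 6 omissions, up to 0.14, 0.19 and 0.28. The UTR of RAB5B holds the heptamer although the gene rose.

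**Figure D4:**
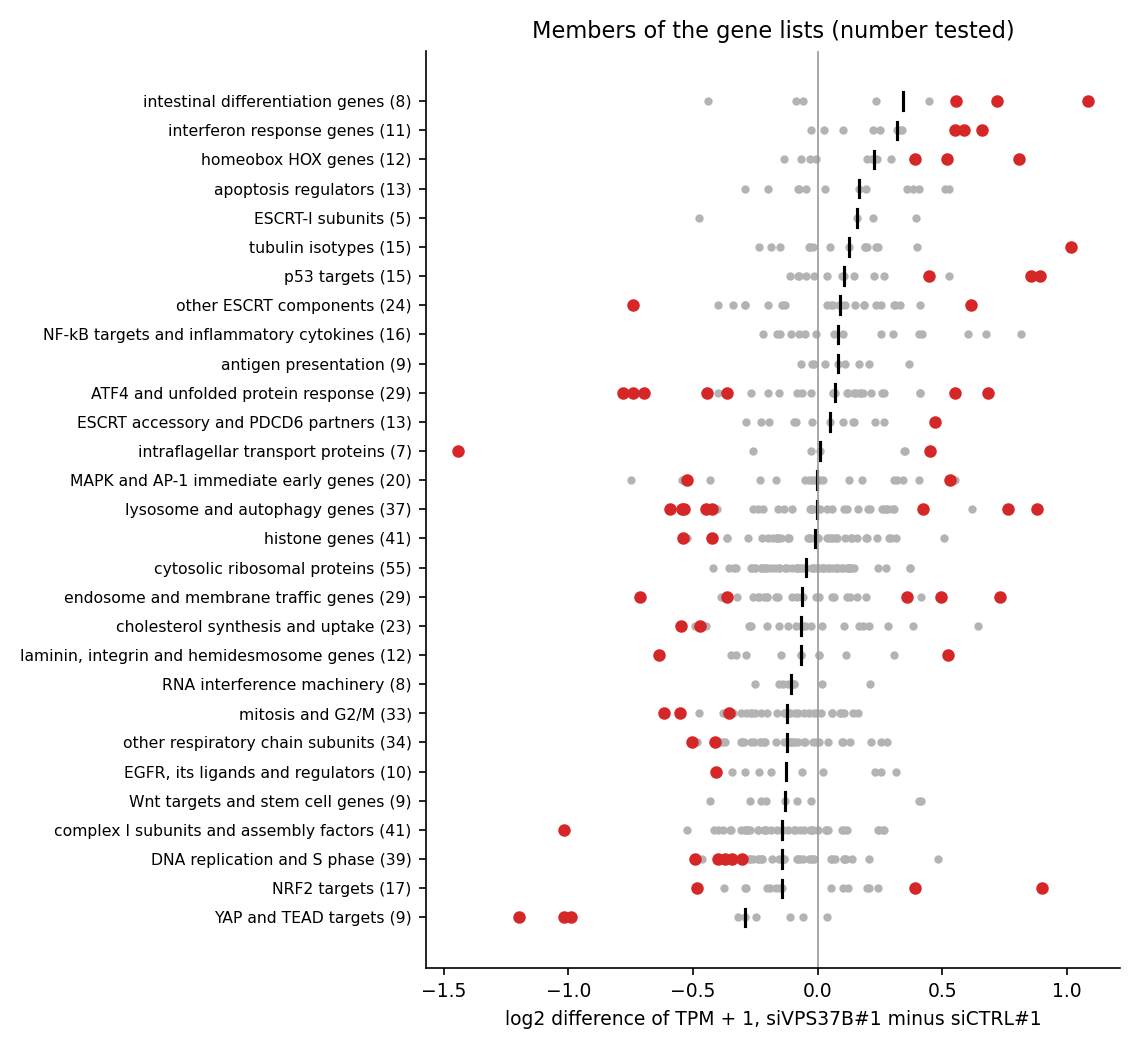
Log2 differences, siVPS37B#1 minus siCTRL#1, of the tested members of each gene list (number tested in brackets), with called genes in red, others in grey and the median as a black bar. VPS37B is left out of the points. Intestinal differentiation genes have the highest median (0.342) and YAP and TEAD targets the lowest (-0.293).

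Intestinal differentiation genes that were called all rose, 3 of 8 tested (37.5%, against 4.61% of all genes higher and 4.78% lower). The list median was 0.342, and 5 of the 8 lay above 0. Against NT the list median was 0.033, with 3 members called higher and 1 lower. TFF3, the trefoil peptide of goblet cells, was at 9.13, 17.5 and 9.11 TPM in siCTRL#1 and 20.4, 31.6 and 25.0 in siVPS37B#1 (1.09 ± 0.18, adjusted p = 0.00041). CDH17, the cadherin of intestinal epithelium, was at 31.5, 38.5 and 38.2 against 48.0, 48.7 and 64.5 TPM (0.56 ± 0.11, adjusted p = 0.0026). MUC13, a transmembrane mucin, was at 11.4, 20.3 and 17.8 against 26.1, 24.3 and 31.4 TPM (0.72 ± 0.17, adjusted p = 0.012). None of the groups overlapped, as held with siVPS37B#1 higher for 10.8% of all genes. All these genes were also higher than in NT (0.71, 0.34 and 0.59, adjusted p = 0.0095, 0.039 and 0.027). CDH17 was called higher than in both siVPS37A#1 and siVPS37C#1, MUC13 only than in siVPS37C#1, and TFF3 than in neither. MUC13 missed the threshold without siCTRL#1 replicate 1 (0.097) or siVPS37B#1 replicate 1 (0.070), and without the block (0.055).

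Homeobox genes that mark position along the body axis gave 3 higher and 0 lower of 12 tested. That was 25% called, against 4.61% of all genes higher and 4.78% lower. HOXB8 was at 67.0, 72.7 and 66.7 TPM in siCTRL#1 and 141, 122 and 103 in siVPS37B#1 (0.81 ± 0.20, adjusted p = 0.015). HOXB9 rose by 0.39 ± 0.09 (adjusted p = 0.010) and HOXA10 by 0.52 ± 0.16 (adjusted p = 0.044). Without the block only HOXB8 stayed (adjusted p = 0.044, against 0.15 and 0.27). HOXB9 was lost without siVPS37B#1 replicate 2 (0.051), HOXB8 in 4 omissions (siCTRL#1 replicates 1 and 3, siVPS37B#1 replicates 1 and 2, 0.052 to 0.092) and HOXA10 in all 6 (0.055 to 0.26).

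Interferon response genes gave 3 higher and 0 lower of 11 tested, and 10 of the 11 lay above 0 (median 0.320). Called were 27.3%, against 4.61% of all genes higher and 4.78% lower. STAT2, a transcription factor of the type I response, was at 12.5, 11.1 and 10.5 TPM in siCTRL#1 and 19.7, 21.5 and 14.9 in siVPS37B#1 (0.66 ± 0.14, adjusted p = 0.0054). IFI6 (0.55 ± 0.15) and the transcription factor IRF7 (0.59 ± 0.16) both had an adjusted p of 0.026. Against NT none of these was called (0.27, 0.30 and 0.25, adjusted p = 0.24, 0.22 and 0.37). Of the other members 2 were called higher than in NT and 0 lower, with a list median of 0.245. STAT2 was lost without siVPS37B#1 replicate 2 (0.051), IFI6 in 5 omissions, all but siVPS37B#1 replicate 3 (0.057 to 0.15), and IRF7 in 4, all but siCTRL#1 replicate 2 and siVPS37B#1 replicate 3 (0.078 to 0.14). Antigen presentation genes gave no call among 9 tested, with PSMB9 at 0.37 (adjusted p = 0.13) and PSMB10 at 0.21 (adjusted p = 0.35). Against NT 4 of the 9 were called higher and 0 lower (list median 0.314). PSMB9 (0.99, adjusted p = 0.0001) and PSMB10 (0.59, adjusted p = 0.0056) were among them. PSMB9 was also higher in siCTRL#1 than in NT (0.62, adjusted p = 0.011).

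In the list of ATF4 targets and the unfolded protein response, which covers amino acid synthesis and protein folding, 2 of 29 tested members rose and 5 fell (median 0.071). The share called was 24.1%, against 9.40% of all genes. HSPA5, the chaperone BiP of the endoplasmic reticulum, was at 386, 430 and 341 TPM in siCTRL#1 and 237, 306 and 182 in siVPS37B#1 (-0.70 ± 0.13, adjusted p = 0.0015). PSAT1, of serine synthesis, was at 382, 397 and 422 against 206, 223 and 274 TPM (-0.78 ± 0.15, adjusted p = 0.0019). ASNS, asparagine synthetase, was at 53.2, 85.2 and 81.4 against 30.3, 48.0 and 52.9 TPM (-0.74 ± 0.16, adjusted p = 0.0059). CRELD2, a secretory pathway chaperone of the same list, went the other way, from 97.9, 118 and 111 to 162, 145 and 173 TPM (0.55 ± 0.13, adjusted p = 0.0080). HSPA5, PSAT1 and ASNS were also lower than in NT (-0.81, -0.58 and -0.64, adjusted p = 0.00014, 0.011 and 0.010), and CRELD2 was higher (0.51, adjusted p = 0.0081). The UTR of HSPA5 holds the heptamer. ASNS missed the threshold without the block (adjusted p = 0.25) and CRELD2 without siCTRL#1 replicate 1 (0.064).

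Cell cycle genes that were called all fell. Of 39 tested genes of DNA replication and S phase 5 fell, with a median of -0.143 and 9 above 0. Of 33 of mitosis 3 fell, with a median of -0.121 and 8 above 0. The shares called were 12.8% and 9.09%, against 9.40% of all genes called and 4.78% lower. PCNA, the sliding clamp of DNA polymerase, was at 364, 494 and 655 TPM in siCTRL#1 and 273, 346 and 449 in siVPS37B#1 (-0.49 ± 0.11, adjusted p = 0.0085). BIRC5, the chromosomal passenger survivin, was at 115, 94.4 and 108 against 78.3, 79.2 and 59.2 TPM (-0.55 ± 0.13, adjusted p = 0.0080). MCM3 (-0.40) and MCM10 (-0.35), of the replication machinery, the kinase CDC7 (-0.37), the DNA repair glycosylase UNG (-0.30) and the cytokinesis proteins KIF23 (-0.62) and PRC1 (-0.35) were called at adjusted p values from 0.019 to 0.0498. PCNA was lost without siCTRL#1 replicate 3 (0.059) and BIRC5 without siCTRL#1 replicate 1 (0.052) or siVPS37B#1 replicate 3 (0.0502). MCM3, MCM10, CDC7, UNG, KIF23 and PRC1 were each lost in at least 4 omissions, siVPS37B#1 replicate 1 among them (0.064 to 0.24). Without the block BIRC5 alone of the 8 stayed (0.031). The UTRs of BIRC5 and CDC7 hold the heptamer.

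Among 15 tested p53 targets 3 rose and 0 fell (20% called, against 4.61% of all genes higher and 4.78% lower). GDF15, a secreted stress cytokine, was at 672, 635 and 303 TPM in siCTRL#1 and 1110, 1007 and 686 in siVPS37B#1 (0.86 ± 0.24, adjusted p = 0.029), DDB2, of UV damage recognition, rose by 0.45 ± 0.12 (adjusted p = 0.025), and CDKN1A is given above. None of these was called against NT (0.14, 0.21 and -0.18, adjusted p = 0.76, 0.29 and 0.65), nor without the block (0.17, 0.13 and 0.078). Other members of the list, 4 in number, were called higher than in NT and 0 lower. The list median was 0.209 against NT and 0.107 against siCTRL#1. GDF15 was lost without siCTRL#1 replicate 1 or 3 or siVPS37B#1 replicate 1 or 2 (0.061 to 0.19), and DDB2 without siVPS37B#1 replicate 1 or 2 or siCTRL#1 replicate 2 (0.080 to 0.18). Of 13 apoptosis regulators none was called, and BAX, with 0.53 ± 0.17, was just outside (adjusted p = 0.0502).

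In the respiratory chain NDUFA8 was the 1 of 41 tested complex I genes to be called (list median -0.142). The share called was 2.44% there, 5.88% for the other complexes and 28.6% for intraflagellar transport, against 9.40% of all genes. Of 34 subunits of the other complexes, COX7C (-0.41, adjusted p = 0.025) and COX6C (-0.50, adjusted p = 0.037) were called, and each lost the call in 5 of 6 omissions, all but siCTRL#1 replicate 3 for COX7C (0.051 to 0.12) and all but siVPS37B#1 replicate 3 for COX6C (0.055 to 0.16). Of 7 tested intraflagellar transport genes, HSPB11 fell, IFT20 rose (0.45, adjusted p = 0.043) and 5 were not called. IFT20 was lost in 5 omissions, all but siVPS37B#1 replicate 3 (0.078 to 0.18). The UTRs of NDUFA8, HSPB11 and COX6C hold the heptamer and those of COX7C and IFT20 do not.

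Among signalling lists, 10% of MAPK and AP-1 genes and 10% of EGFR genes were called, against 9.40% of all genes. Of NF-kB and Wnt targets 0% were called. Of 16 NF-kB targets and cytokines none was called (median 0.084), the nearest being the chemokine CXCL3 (0.68 ± 0.22, adjusted p = 0.055) and CXCL8 (0.82 ± 0.31, adjusted p = 0.093), which was higher than in NT (1.36, adjusted p = 0.0047). Of 20 MAPK and AP-1 genes, JUND, an AP-1 subunit, rose (0.53 ± 0.14, adjusted p = 0.016) and SPRED2, an inhibitor of MAPK signalling whose UTR holds the heptamer 3 times, fell from 58.1, 58.8 and 53.03 to 37.1, 44.0 and 36.5 TPM (-0.52 ± 0.11, adjusted p = 0.0043). JUND was lost without siCTRL#1 replicate 1 or 3 or siVPS37B#1 replicate 1 (0.057 to 0.083), and SPRED2 in none of the omissions. ADAM10, the protease that sheds EGFR ligands, was the 1 of 10 genes of that receptor called (-0.41, adjusted p = 0.046), and no omission kept it (0.077 to 0.17). Of 9 Wnt targets and stem cell genes none was called. The list median was -0.131 and 2 of the 9 lay above 0, EPHB2, an ephrin receptor, at 0.41 (adjusted p = 0.18) being one of them.

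Integrins were called in both directions among 12 laminin, integrin and hemidesmosome genes. The share called was 16.7% in that list, 17.6% for NRF2 targets and 8.7% for cholesterol genes, against 9.40% of all genes. ITGB5 was at 31.0, 34.5 and 47.8 TPM in siCTRL#1 and 22.1, 22.4 and 26.5 in siVPS37B#1 (-0.64 ± 0.14, adjusted p = 0.0059). ITGB4, of the hemidesmosome, had a difference of 0.52 (adjusted p = 0.034) that no omission kept (0.051 to 0.14) and that was -0.04 against NT (adjusted p = 0.89). ITGB5 was lost without siCTRL#1 replicate 3 (0.052). Of 17 NRF2 targets ALDH3A1 and TALDO1 rose (0.39, adjusted p = 0.045) and NQO1 fell (-0.48, adjusted p = 0.025). TALDO1 was lost in 5 omissions, all but siVPS37B#1 replicate 3 (0.083 to 0.17), and NQO1 in 4, all but siVPS37B#1 replicate 2 and siCTRL#1 replicate 3 (0.053 to 0.12). Of 23 cholesterol genes NSDHL (-0.47, adjusted p = 0.016) and MSMO1 (-0.55, adjusted p = 0.040) fell and were lost in 4 and 5 omissions, siVPS37B#1 replicate 1 among them (0.071 and 0.19), and the UTR of MSMO1 holds the heptamer.

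Ribosomal, RNA interference, epithelial and histone lists had no or few calls, where 9.40% of all genes were called. None of 55 ribosomal protein genes was called (median -0.047), with RPL15 at 0.37 (adjusted p = 0.070) and RPS23 at -0.33 (adjusted p = 0.085). None of 8 genes of the RNA interference machinery was called, with AGO2 at 0.21 (adjusted p = 0.26) and HSP90AA1 at -0.25 (adjusted p = 0.40). Of the epithelial markers, KRT18 was nearest to a call (-0.33, adjusted p = 0.053) and CLDN4 next (0.21, adjusted p = 0.29). Of 41 histone genes, which have near-identical copies and are therefore uncertain, HIST1H4L (-0.54, adjusted p = 0.032) and HIST1H1C (-0.42, adjusted p = 0.044) were lower, and both calls ended in 5 or more omissions, siCTRL#1 replicate 1 among them (0.10 and 0.091).

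The same siRNA was present again in libraries that the single comparison does not use. In its addition to the other knockdowns 1380 genes were called (21.4%), 749 higher (11.6%) and 631 lower (9.77%), with a smaller SE (median 0.082) because 18 libraries entered. Of the 298 genes higher alone, 126 (42.3%, and 16.8% of those higher when added) were called higher when added and 1 lower. Of the 309 lower alone, 149 (48.2%, and 23.6%) were called lower and 1 higher. The medians shrank from 0.543 to 0.202 for the first group and from -0.493 to -0.199 for the second. Falls with the heptamer were called again in 62.6% (67 of 107) and falls without it in 40.6% (76 of 187). Over all genes with a UTR, 17.3% of those with the heptamer and 8.56% of those without it were called lower when added. Falls and heptamer were both picked on the single comparison, so the split is a description.

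Single genes had unlike shares of the single effect in the additions. NDUFA8 fell by 0.91 ± 0.08 when the siRNA was added (adjusted p = 6.0e-08), and it was called in each addition, at 375 TPM in siVPS37A#1 against 235 in siVPS37AB#1, 287 in siVPS37C#1 against 137 in siVPS37BC#1 and 311 in siVPS37AC#1 against 154 in siVPS37ABC#1. STYX fell by 0.68 ± 0.09 and THBS1 by 0.75 ± 0.08. HSPB11 fell by 0.29 ± 0.07 (adjusted p = 0.0039), with 688 TPM in siVPS37A#1 against 559 in siVPS37AB#1, 722 in siVPS37C#1 against 565 in siVPS37BC#1 and 854 in siVPS37AC#1 against 732 in siVPS37ABC#1. The difference between alone and added was -1.15 ± 0.14 for HSPB11 (adjusted p = 8.3e-05), and 45 genes (0.697%) passed this test, 18 with the higher value alone (0.279%) and 27 with the lower (0.418%). Remaining VPS37B was 3.35 ± 1.21% alone and 4.94 ± 0.55%, 5.47 ± 2.21% and 7.42 ± 1.36% of siCTRL#1 in siVPS37AB#1, siVPS37BC#1 and siVPS37ABC#1 (SD, n = 3). The dose of each siRNA in the mixtures is not given in the sources used here, and its part in the difference was not tested.

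The additions themselves were unequal. When the siRNA was added to siVPS37A#1, 513 genes were called (7.94%), 309 higher (4.78%) and 204 lower (3.16%), and in the addition to siVPS37AC#1 789 (12.2%), 375 higher (5.81%) and 414 lower (6.41%). In the addition to siVPS37C#1 5 were called (0.0774%), with 592 at an unadjusted p under 0.05. These 5 were VPS37B, NDUFA8, CHMP4C, THBS1 and STX3, all lower, of which STX3, a syntaxin, was named after its value was seen. CDA rose by 1.76 when added to siVPS37A#1 and by 2.73 when added to siVPS37AC#1, from 15.5 to 53.6 and from 15.4 to 102 TPM, but went from 8.34 to 10.8 TPM in siVPS37BC#1 against siVPS37C#1 (0.32, adjusted p = 0.65). CDKN1A had differences of 1.39, 2.00 and 0.22 in these additions. CXCL8 and KRTAP2-3, a keratin-associated protein, rose when the siRNA was added (1.51 and 1.16, adjusted p = 1.5e-06 and 1.2e-07) and were not called alone (0.82 and -0.22).

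**Figure D5:**
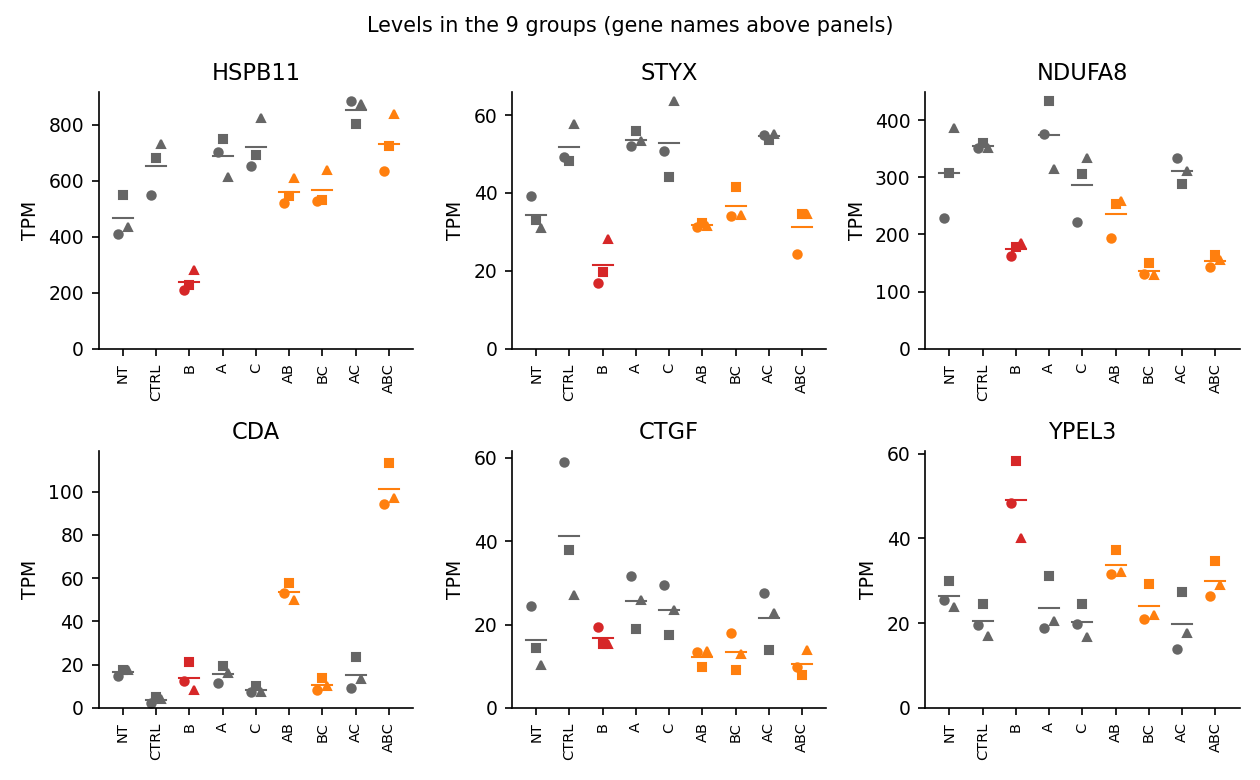
TPM of 6 genes in the 27 libraries (circle, square and triangle for replicates 1 to 3, bars for means), with siVPS37B#1 in red, combinations that include the VPS37B siRNA in orange and the other groups in grey. HSPB11 and YPEL3 stand apart in siVPS37B#1 alone, NDUFA8 and STYX have a lower mean in each group with the siRNA than in its partner without it, and CDA and CTGF have their lowest and highest level in siCTRL#1 respectively.

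Against the single knockdowns of the other paralogs, siVPS37B#1 gave 1161 calls compared with siVPS37A#1 (18.0%), 375 higher (5.81%) and 786 lower (12.2%), and 1222 compared with siVPS37C#1 (18.9%), 581 higher (9.00%) and 641 lower (9.93%). With only these groups in the fit, 1 gene, VPS37B, was called against siVPS37A#1. After quantile normalization the calls against siVPS37A#1 were 523 higher and 535 lower. These comparisons share the siVPS37B#1 libraries with the one against siCTRL#1. HSPB11 was lower than in siVPS37A#1 by 1.53 and than in siVPS37C#1 by 1.59 (adjusted p = 6.2e-09 and 2.4e-09). CST7, an inhibitor of cathepsins, was at 85.4, 93.3 and 67.7 TPM in siVPS37B#1, 182, 131 and 128 in siCTRL#1 and 319, 231 and 220 in NT. Its differences from siCTRL#1, siVPS37A#1 and siVPS37C#1 were -0.83, -1.64 and -1.17 (adjusted p = 0.00068, 2.0e-08 and 3.0e-06). CXCL5, a neutrophil chemokine, whose UTR holds the heptamer 2 times, had -0.75, -1.39 and -0.82 (adjusted p = 0.00041, 2.8e-08 and 6.1e-05) and was lower than in NT as well (-1.25, adjusted p = 2.2e-07).

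Rises against the paralogs had other leading genes. RAC3 was higher than in siVPS37C#1 by 1.57 and the isocitrate dehydrogenase IDH2 by 1.30 (adjusted p = 7.3e-07 and 3.0e-06), and IDH2 also rose against siCTRL#1 (0.75, adjusted p = 0.0046). PMVK, of cholesterol synthesis, was higher than in siVPS37C#1 (1.22, adjusted p = 0.00019) but not called against siCTRL#1 (0.38, adjusted p = 0.24). HCFC1R1 and MARCH2 were higher than in siVPS37A#1 (1.52 and 1.42, adjusted p = 1.9e-05 and 6.1e-06), as were the histone genes HIST1H2BM and HIST1H2BJ (1.85 and 1.43), whose differences from siCTRL#1 were 0.51 and 0.30 and not called. Higher than in siCTRL#1, siVPS37A#1 and siVPS37C#1 alike were 99 genes, YPEL3 among them, and lower than in all of these were 168. Of the lower ones 66 hold the heptamer in a UTR and 95 do not, where 12.3% of all genes with a UTR hold it. The heptamer was picked on the siVPS37B#1 and siCTRL#1 libraries used here, so an excess follows from the choice.

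Since several rises and falls turned on siCTRL#1, the control siRNAs given in the labels are shown with the seed of the antisense strand in capitals, 5' to 3'.
NC3 antisense: cUACGAUAgaccggucguatt
NC4 antisense: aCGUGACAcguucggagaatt
Genes whose 3' UTR holds the letters that pair with the NC4 seed, TGTCACG (134 of 6178), had a median log2 difference in siCTRL#1 against NT of -0.085 against 0.006 for the others, and in siVPS37B#1 against siCTRL#1 of -0.014 against -0.025. For the NC3 seed, TATCGTA (70 genes), the medians in siCTRL#1 against NT were 0.013 and 0.003. Whether these duplexes were in siCTRL#1 is not given in the sources used here. Of the other genes named for siCTRL#1 against NT, LY6G6D was lower (-1.57, adjusted p = 7.6e-06) and STRADB higher (0.93, adjusted p = 3.0e-05), and in siVPS37B#1 against siCTRL#1 their differences were 0.26 and -0.03, not called (adjusted p = 0.40 and 0.92).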

How the data were processed

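The authors deposited 1 table of normalized values for 10470 genes and 27 libraries. Per the submitters' processing notes the tools were DESeq2 1.18.1 and HTSeq 0.6.0 and the build hg19, with no role stated. Each deposited column sums to 1000000, so the values were treated as TPM. Within a relative tolerance of 1e-11 all 27 values of every gene (100.0%) were whole multiples of 1 step per gene and library, which gave the reads, 5252496 to 14252058 per library.

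A limma 3.58.1 model in R 4.3.3 of log2(TPM + 1), with an intensity trend, 9 group means and the replicate number as a block (16 residual degrees of freedom), was fitted to the 6458 genes averaging 10 TPM or more. The pseudocount understates the change of low genes. The labels give the replicate number also as the batch, and same-numbered libraries resembled each other after removal of group means (mean r of 0.355 against -0.175 for other numbers), and siVPS37B#1 and siCTRL#1 pairs had r of 0.613, 0.191 and 0.571. The members, gene lists and tests were chosen with earlier results of these data known. Named genes followed a rule: ESCRT-I, the 12 largest rises and falls averaging 20 TPM or more, up to 4 called genes per list (5 where all are given) or 2 uncalled ones, and 4 rises and falls in other comparisons. Some genes the rule takes are not reported here. Alternatives were no block, a library number term, a pseudocount of 8, no filter, at least 50 TPM, quantile normalization, only the groups compared, NT as reference, each library left out and, added after seeing the data, limma's voom on the recovered reads. Scripts were tested on simulated data. UTRs came from GENCODE v29, and Python 3.11.15 with numpy 2.4.6, pandas 2.3.3 and matplotlib 3.10.9 was used.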

Additional observations from a re-analysis of the deposited data

Results flagged for a closer look

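For 13 of the named genes the effect of the siVPS37B#1 siRNA alone differed from its effect when added to other knockdowns, by limma's test of that difference. HSPB11 had -1.15 (alone -1.44, added -0.29, adjusted p = 8.3e-05), and ITGB5 (-0.77, adjusted p = 0.018), NQO1 (-0.67, adjusted p = 0.038), KRTAP2-3 (-1.38, adjusted p = 0.0044), RELB (-0.94, adjusted p = 0.016) and SRXN1 (-0.92, adjusted p = 0.018) were lower alone too. YPEL3 (0.76, adjusted p = 0.016), HCFC1R1 (1.203, adjusted p = 0.017), TFF3 (1.06, adjusted p = 0.016), HIST1H2BM (0.82, adjusted p = 0.045), LY6G6D (1.12, adjusted p = 0.016), C2orf54 (1.02, adjusted p = 0.016) and CORO1A (0.95, adjusted p = 0.027) were higher alone. RELB, a subunit of NF-kB, and SRXN1, which repairs peroxiredoxins, were called when the siRNA was added (0.72 and 0.72) and not alone (-0.22 and -0.20). Without the replicate block HSPB11 alone passed (adjusted p = 0.0021), and with the library number term its adjusted p was 0.12. Groups of 3 libraries were not examined for single outlying values.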

How the results depend on the processing

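With the replicate block, siVPS37B#1 against siCTRL#1, added to other knockdowns, against siVPS37A#1, against siVPS37C#1, alone minus added, and siCTRL#1 against NT gave, in this order, 607, 1380, 1161, 1222, 45 and 572 calls. With no replicate block they gave 111, 702, 506, 464, 1 and 205, and with 50 TPM or more 227, 591, 482, 502, 13 and 207, where 2599 genes were tested. The library number term gave 55 for the single comparison, 483 for the additions and 0 for alone minus added (957, 1442 and 564 at an unadjusted p under 0.05, and voom gave 32 for the last). With only the groups compared, 1 gene was called against siVPS37A#1 and 2017 against siVPS37C#1. No filter gave 73 for alone minus added and 939 for siCTRL#1 against NT. Leaving out each library gave 164 to 504, 1124 to 1730, 663 to 1591, 611 to 1091, 4 to 110 and 282 to 750, the lowest without siVPS37B#1, siVPS37AC#1 and siVPS37A#1 replicate 1, siVPS37C#1 replicate 3, siCTRL#1 replicate 2 and NT replicate 3. Without siVPS37B#1 replicate 1 the calls against siVPS37A#1 and siVPS37C#1 were 665 and 685. The cause of these moves was not tested.

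Of 76 named called genes, 31 kept their call without the block, 19 with the library number term, 72 with a pseudocount of 8, 73 without a filter, 71 after quantile normalization, 68 with voom and 69 with only the groups compared, and none changed sign there. Among the named genes reported here, signs turned with NT as reference for CDA (-0.33), MT1F (-0.21), ALDH3A1 (-0.40), CDKN1A (-0.18), CTGF (0.10), CYR61 (0.088), PDCD6 (-1.37), CXCL3 (-0.053), ITGB4 (-0.042), EPHB2 (-0.23), RAB5B (-0.067), MCM10 (0.033), RPS23 (0.017), HIST1H2BM (-0.70), HIST1H2BJ (-0.22), LY6G6D (-1.31), CORO1A (-0.645), RELB (0.11), STRADB (0.90) and, in the fit without a filter, VPS37A (from -0.07 to 0.21). With the library number term they turned for the uncalled KRTAP2-3 (0.20), PMVK (-0.081) and STRADB (0.027), and STRADB ranged from -0.134 to 0.049 over the omissions. The gap between genes with and without TTAACAA was -0.168, and -0.107 with NT as reference and -0.136 with a pseudocount of 8. Depth limits VPS37B itself, at 8 to 30 reads after knockdown.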
